A study of Mus musculus with 12 samples.

Results

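The genes described here encode 9 proteins of blood coagulation and of plasminogen activation: F3, F7, F10, F13a1, Serpinb2, Plau, Plaur, Procr and Thbs1. They were chosen by symbol, with earlier results of these data known. All 9 were present among the 12850 genes listed and passed the filter that left 11885 genes for testing. Poly(A) RNA was sequenced from thioglycollate-elicited peritoneal exudate cells (PECs), the macrophage-rich cells that gather in the peritoneum after an irritant, collected 3.5 days after an injection of 2 ml of 4% Brewer's thioglycollate medium and cultured. WT cells and cells of Zc3h12aS513A/S513A mice, a CRISPR-Cas9 knock-in in which a serine of the RNA-degrading enzyme Regnase-1 is replaced by alanine (S513A), both on a C57BL/6 background, were left without lipopolysaccharide (LPS, a bacterial cell wall component) or given 100 ng/ml for 4 or 8 hr. There were 2 libraries in each of the 6 groups, 12 in all. No library came from cells kept for 4 or 8 hr without LPS, so LPS and time in culture cannot be told apart. The replacement is carried by every cell of the animal. The ages of the mice, their relation to the WT mice and whether the 2 libraries of a group came from separate mice were not given in the sources used here, so p-values measure only the spread between these libraries, which may be technical.

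Coagulation starts when tissue factor (F3), a membrane protein, binds factor VII and the pair activates factor X, which in turn makes thrombin. Thrombin cuts fibrinogen into fibrin, factor XIII crosslinks it, and plasmin, made from plasminogen by urokinase (Plau) bound to its receptor (Plaur), dissolves it again. Macrophages are a known source of several of these proteins at sites of inflammation, where fibrin is laid down and later cleared.

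Sequencing depth was even, with 9525979 to 12439960 reads on the listed genes per library. The cells carried high levels of macrophage markers, 8 of which summed to 16800 to 27800 CPM (reads of a gene scaled to the size of its library) in each library, while the 4 B cell markers analysed here summed to at most 8.87 CPM, the 3 platelet and megakaryocyte markers to at most 7.26 CPM, the 2 neutrophil markers to 20.3 to 108 CPM and the 5 fibroblast markers to 20.5 to 82.7 CPM. With LPS the cytokine gene Tnf was higher than at 0 hr by 6.13 at 4 hr and 4.81 at 8 hr (log2 scale). Il1b was higher by 8.31 and 6.46. Zc3h12a itself, which the replacement leaves intact as a transcript so that its level does not check the genotype, lay at 4.99 to 5.39 log2 CPM at 0 hr, 7.87 to 8.11 at 4 hr and 6.80 to 7.11 at 8 hr.

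The 9 genes lie at 8 places in the mouse genome (GRCm38, the authors' mm10), since F7 (chr8:13026034-13035809) and F10 (chr8:13037308-13056676) are neighbours on the plus strand, separated by 1498 bases. F3 lies at chr3:121723537-121735048, Plaur at chr7:24462484-24475968, Plau at chr14:20836660-20843385, Procr at chr2:155751117-155755471, Thbs1 at chr2:118111876-118127133 and Serpinb2 at chr1:107511423-107535478, all on the plus strand, and F13a1 at chr13:36867178-37050244 on the minus strand. Reads were counted without strand, and 74 exon bases of F13a1 and 208 of Thbs1 overlap genes on the opposite strand, so reads there cannot be assigned to one of the pair. A further 291 exon bases of Serpinb2 are shared with Serpinb10 on the same strand.

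Promoter sequence from RefSeq (GRCm38.p6, 250 bases before to 50 after an annotated start) was found for 7 of the 9 genes, all but Thbs1 and Plau. The windows were searched on both strands for the AP-1 site TGANTCA, the TATA box TATAAA and the kappaB consensus. F3, Serpinb2, Plaur and Procr held an AP-1 match, which 5.25% of the promoters of genes tested and 7.81% of all promoters hold. No AP-1 match lay in the windows of F7, F10 or F13a1. None of the 7 genes had a match to the full kappaB consensus, found in 5.21% of the promoters of genes tested. Sites that depart from this consensus were not searched for, so the lack of a match does not show that a kappaB site is absent. TATAAA was found before the start of Serpinb2, first base at -29, and on the minus strand after that of F3, first base at 43, against 7.08% of the promoters of genes tested. A match is a string of letters and not a shown binding site. The 4 genes with an AP-1 match had more RNA at 4 hr of LPS than at 0 hr. So did F10, without a match, and Thbs1, whose promoter was not found. A link between match and rise was not tested. Shown for these 4 genes are the 250 bases before the start, 5′ to 3′ on the plus strand, with AP-1 and TATA letters in capitals. They are chr3:121723287-121723536 for F3, chr1:107511173-107511422 for Serpinb2 (the more upstream of its annotated starts), chr7:24462233-24462482 for Plaur and chr2:155750967-155751216 for Procr.
F3: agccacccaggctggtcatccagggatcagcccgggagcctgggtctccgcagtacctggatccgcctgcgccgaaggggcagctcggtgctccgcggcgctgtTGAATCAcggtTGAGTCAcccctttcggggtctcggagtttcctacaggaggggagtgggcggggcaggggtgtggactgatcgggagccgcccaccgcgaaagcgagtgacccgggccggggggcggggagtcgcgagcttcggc
Serpinb2: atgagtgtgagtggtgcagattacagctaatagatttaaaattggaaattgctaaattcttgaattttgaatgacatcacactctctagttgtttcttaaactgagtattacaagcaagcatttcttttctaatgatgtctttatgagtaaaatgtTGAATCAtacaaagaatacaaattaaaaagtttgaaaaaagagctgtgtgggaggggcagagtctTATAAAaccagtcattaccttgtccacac
Plaur: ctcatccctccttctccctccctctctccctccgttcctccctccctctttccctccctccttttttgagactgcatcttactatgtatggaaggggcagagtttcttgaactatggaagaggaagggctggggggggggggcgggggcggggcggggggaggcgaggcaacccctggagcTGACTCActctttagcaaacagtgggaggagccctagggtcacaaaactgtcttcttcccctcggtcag
Procr: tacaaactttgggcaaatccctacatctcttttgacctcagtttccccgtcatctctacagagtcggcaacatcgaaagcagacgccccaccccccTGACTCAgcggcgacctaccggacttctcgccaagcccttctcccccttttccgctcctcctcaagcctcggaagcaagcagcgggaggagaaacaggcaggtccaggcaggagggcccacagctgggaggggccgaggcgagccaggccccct

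The AP-1 matches began at -146 and -135 in F3, at -94 in Serpinb2, at -69 in Plaur and at -154 in Procr, counted from the RefSeq start, which for Procr lies inside the GENCODE gene. F3 was the member with a pair of them, 4 bases apart.

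In the 3′ UTR, the pentamer ATTTA, the core of AU-rich elements that target short-lived mRNAs for decay, occurred 7 times in F3, 6 in Thbs1, 5 in Serpinb2, 4 in F13a1, 2 in Plau, 2 in Plaur, 1 in Procr and 0 times in F7 and F10. The median over the 11086 genes tested that have an annotated 3′ UTR was 1, and 35.8% of them held at least 3. The longer AU-rich nonamer TTATTTATT was found in Serpinb2 and Thbs1, and in 7.39% of genes. Its sites are shown with the nonamer in capitals, at chr1:107525197-107525225 for Serpinb2 and chr2:118126155-118126183 for Thbs1 (GRCm38, plus strand), since these are the members that hold the element.
Serpinb2: ttttacagtgTTATTTATTgtttatataa
Thbs1: taaatacagaTTATTTATTaaccctgttc

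Before LPS the genes differed widely in level. Per kb of exon, the means over the 4 libraries at 0 hr were 301 CPM for F7, 140 for F10, 88.3 for Plau, 68.8 for Plaur, 49.95 for Procr, 39.0 for Thbs1, 26.0 for Serpinb2, 3.34 for F3 and 2.76 for F13a1. In that order, the libraries of Procr and Thbs1, of Thbs1 and Serpinb2, and of F3 and F13a1 overlapped, and the other neighbours did not. F7, a factor known mainly as a liver product, was thus at the 99.0 percentile of the genes tested with a known length, and F3, its partner on the membrane, at the 40.3 percentile. After 4 hr of LPS the order began with F10 at 627 CPM per kb, followed by Serpinb2 at 275 and F7 at 250, whose libraries overlapped. At 8 hr it began with F10 at 509, F7 at 310 and Procr at 247, which did not overlap. F3 and F13a1 were the lowest of the 9 at every time, with F13a1 at 0.543 CPM per kb by 8 hr.

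**Figure D1:**
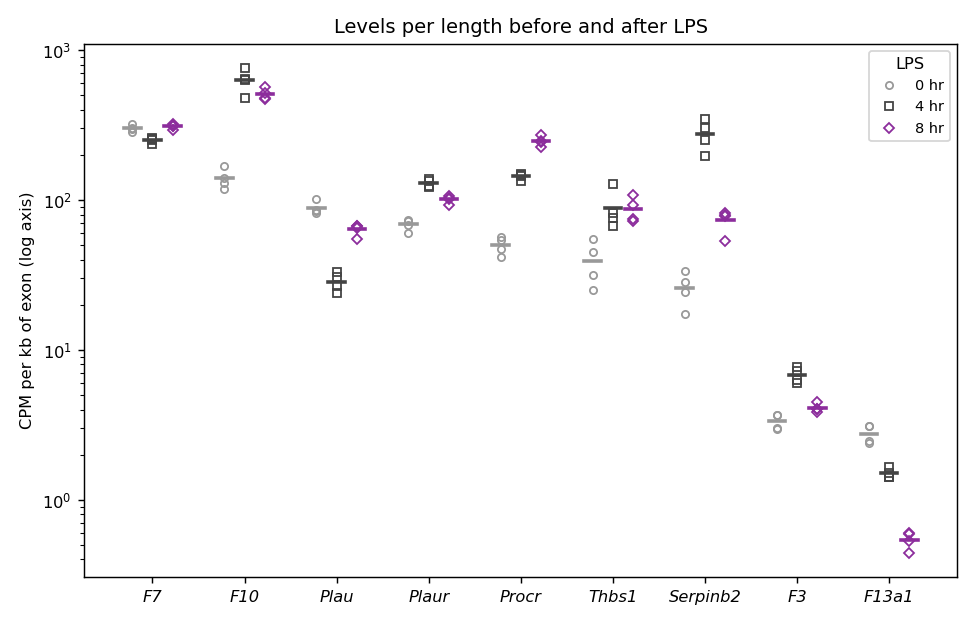
Level of each gene per kb of exon (CPM per kb, log axis) in the 4 libraries of each LPS time, both genotypes together, with the mean as a bar. At 4 hr the means of F10, Serpinb2 and F7 are 627, 275 and 250 CPM per kb, and the libraries of Serpinb2 and F7 overlap. F3 and F13a1 stay lowest.

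The RNA of all 9 genes differed between 4 hr of LPS and 0 hr, and the changes went both ways. Serpinb2, F10, Procr, Thbs1, F3 and Plaur rose and Plau, F13a1 and F7 fell (limma, all 12 libraries, mean of both genotypes, Benjamini-Hochberg adjusted p over all genes tested). Of all genes tested, 29.1% rose and 26.7% fell at 4 hr. The median log2 change of the 9 was 1.02 against 0.02 for all genes, and the median size without sign was 1.20 against 0.42. Because the 9 were chosen with earlier results of these data known, these differences from all genes are only a description. At 8 hr 5 members were higher than at 0 hr (Procr, F10, Serpinb2, Thbs1 and Plaur) and 2 lower (F13a1 and Plau), against 24.5% and 21.6% of all genes. Between 4 and 8 hr 3 rose (Plau, Procr and F7) and 4 fell (Serpinb2, F13a1, F3 and Plaur), each against 12.8% of all genes. Scaling by library totals lowered the share of called genes that were higher from 52.2% to 30.9% at 4 hr and from 53.2% to 35.0% at 8 hr, and the members called at these times had the same directions. The 3 LPS comparisons share libraries and are not independent of each other. In bulk RNA of a mixed exudate, fewer cells of a type and less RNA per cell cannot be told apart.

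**Figure D2:**
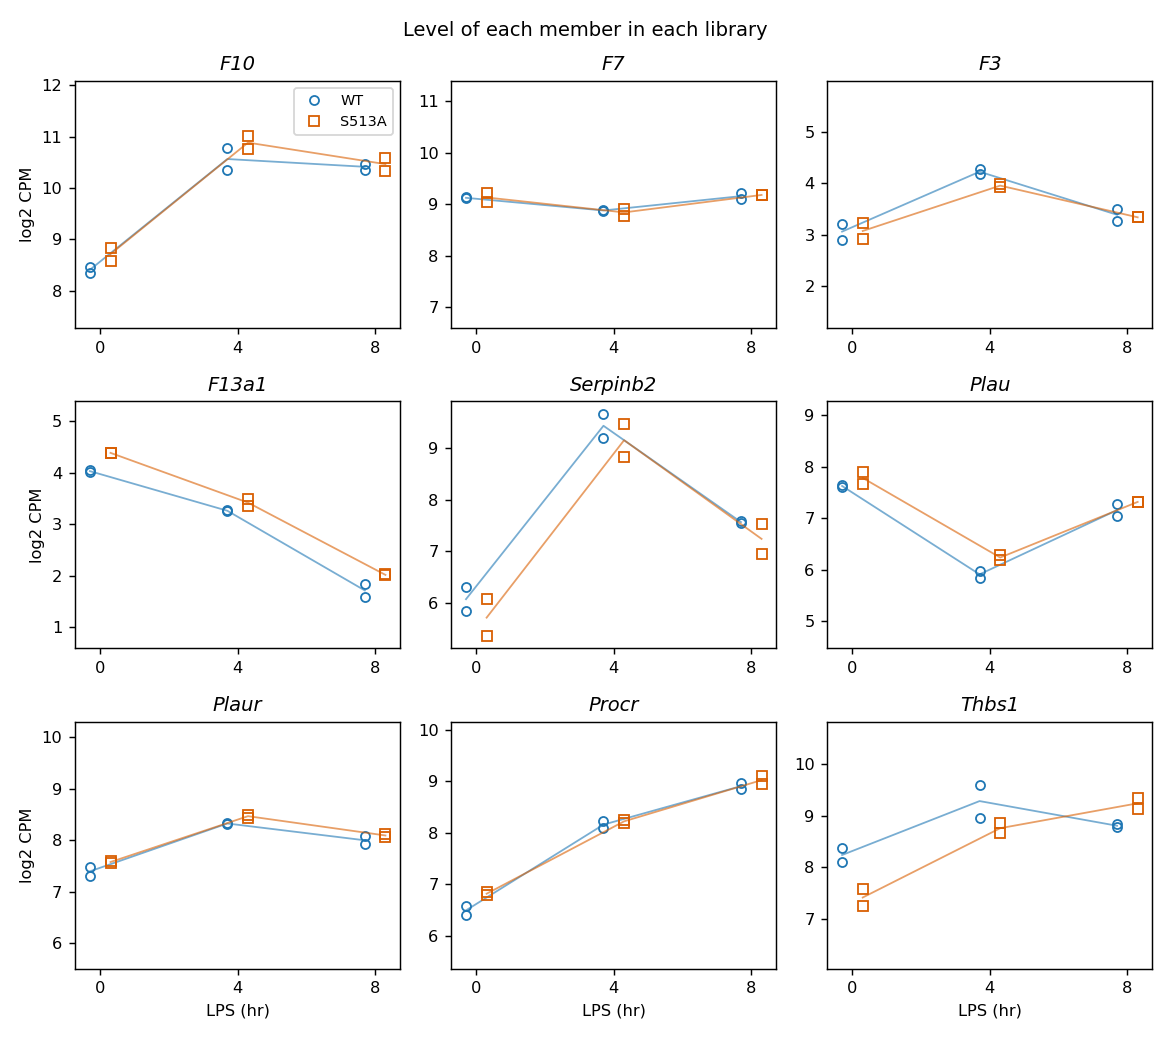
Level of each gene (log2 CPM) in every library at 0, 4 and 8 hr of LPS, with WT as circles and S513A as squares, lines through the group means and the same 4.8-unit height on each vertical axis. Serpinb2 and F3 peak at 4 hr, Plau dips at 4 hr, Procr climbs and F13a1 drops throughout, and F7 stays within 8.77 to 9.22.

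F3, tissue factor, read 3.22 and 2.91 log2 CPM in the WT libraries at 0 hr and 3.22 and 2.92 in the S513A libraries. At 4 hr the values were 4.27 and 4.18 in WT and 3.99 and 3.92 in S513A, and at 8 hr 3.50 and 3.28 in WT and 3.34 and 3.34 in S513A. Every library at 4 hr lay above every library at 0 hr and at 8 hr. The rise at 4 hr was 2.03-fold (log2 change 1.02, SE 0.11, adjusted p = 1.99e-05), and the level then fell by 0.73 on the log2 scale to 8 hr (SE 0.11, adjusted p = 0.00103). At 8 hr the difference from 0 hr was 0.30 (SE 0.11) and missed the threshold (adjusted p = 0.0533), although no library at 0 hr reached the lowest at 8 hr. These values rest on 90 to 219 reads per library.

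F10, which encodes factor X, the protease of the common pathway, read 8.47 and 8.35 log2 CPM in WT and 8.59 and 8.84 in S513A at 0 hr. At 4 hr it read 10.77 and 10.35 in WT and 10.75 and 11.01 in S513A, and at 8 hr 10.36 and 10.47 in WT and 10.34 and 10.59 in S513A. All libraries with LPS lay more than a log2 unit above all libraries without. The rise was 4.47-fold at 4 hr (log2 change 2.16, SE 0.12, adjusted p = 7.49e-08) and 3.67-fold at 8 hr (1.88, SE 0.12, adjusted p = 2.93e-07). Between 4 and 8 hr the log2 change of -0.28 (SE 0.12) did not pass (adjusted p = 0.108). Without WT 4 hr replicate 2, the lowest of the 4 hr libraries, it was -0.39 and passed (adjusted p = 0.0237).

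Its upstream neighbour F7, which encodes factor VII, the partner of tissue factor, was nearly level. It read 9.11 and 9.14 in WT and 9.22 and 9.05 in S513A at 0 hr, 8.88 and 8.88 in WT and 8.91 and 8.77 in S513A at 4 hr, and 9.10 and 9.22 in WT and 9.18 and 9.18 in S513A at 8 hr. The 4 hr libraries lay below all others by a small margin. The decrease at 4 hr was 1.21-fold (log2 change -0.27, SE 0.07, adjusted p = 0.0102) and was not called without S513A 0 hr replicate 1 (-0.23, adjusted p = 0.051). At 8 hr the difference from 0 hr was 0.04 (95% confidence interval -0.12 to 0.21, adjusted p = 0.691). At 8 hr, then, F10 was 3.67-fold above its level at 0 hr, while the interval of F7 reached 1.15-fold at most. The difference between the neighbours was not tested.

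F13a1, the A subunit of factor XIII, which crosslinks fibrin and is also known as a product of monocytes and macrophages, fell the furthest by 8 hr. It read 4.05 and 4.01 log2 CPM in WT and 4.39 and 4.38 in S513A at 0 hr, 3.27 and 3.25 in WT and 3.35 and 3.49 in S513A at 4 hr, and 1.58 and 1.84 in WT and 2.00 and 2.02 in S513A at 8 hr. The times did not overlap. The level was 1.83-fold lower at 4 hr (log2 change -0.87, SE 0.10, adjusted p = 2.76e-05) and 5.08-fold lower at 8 hr (-2.35, SE 0.10, adjusted p = 1.48e-08), when 31 to 46 reads per library remained. Other cells that carry factor XIII include platelets, whose 3 markers analysed here summed to 1.62 to 2.42 CPM at 0 hr and 3.67 to 7.26 at 8 hr. Of these, Ppbp and Gp6 were higher at 8 hr than at 0 hr and Treml1 was lower, from 0.40 to -0.15 log2 CPM in WT and from -0.24 to -0.45 in S513A. The 2 eosinophil markers analysed here summed to 15.3 to 18.5 CPM at 0 hr and 3.62 to 4.58 at 8 hr, nearly all of it Siglecf, since Ccr3 had at most 8 reads in any library. The part of other cells in the F13a1 result was not tested.

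Serpinb2, plasminogen activator inhibitor 2, which blocks urokinase, showed the highest fold change of the 9 at 4 hr. It read 6.30 and 5.84 in WT and 5.36 and 6.07 in S513A at 0 hr, 9.67 and 9.21 in WT and 8.84 and 9.48 in S513A at 4 hr, and 7.54 and 7.59 in WT and 6.96 and 7.53 in S513A at 8 hr. The 3 times did not overlap, and replicate 1 of S513A was the lowest library at each of them. The rise was 10.6-fold at 4 hr (log2 change 3.41, SE 0.21, adjusted p = 1.72e-07). At 8 hr 2.86-fold remained (1.51, SE 0.21, adjusted p = 0.000137), after a fall of 3.72-fold from 4 hr (-1.90 on the log2 scale, SE 0.21, adjusted p = 0.000123). The SE of this gene was the largest of the 9.

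Plau, urokinase itself, moved the other way. It read 7.64 and 7.61 in WT and 7.90 and 7.66 in S513A at 0 hr, 5.83 and 5.98 in WT and 6.29 and 6.18 in S513A at 4 hr, and 7.03 and 7.28 in WT and 7.31 and 7.32 in S513A at 8 hr. Each time stood apart, with the 4 hr libraries lowest and the 8 hr libraries in between. Plau was 3.10-fold lower at 4 hr (log2 change -1.63, SE 0.08, adjusted p = 4.80e-08), regained 2.24-fold by 8 hr (1.16, SE 0.08, adjusted p = 1.29e-05) and was then 1.38-fold below its level at 0 hr (-0.47, SE 0.08, adjusted p = 0.000991). At 4 hr, then, the RNA of Plau was at its lowest and that of the inhibitor Serpinb2 at its highest of the 3 times. Protein was not measured here.

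Plaur, the receptor that holds urokinase at the cell surface, read 7.49 and 7.31 in WT and 7.57 and 7.59 in S513A at 0 hr, 8.31 and 8.34 in WT and 8.44 and 8.50 in S513A at 4 hr, and 7.93 and 8.07 in WT and 8.06 and 8.12 in S513A at 8 hr. No library of one time reached into another time. It rose 1.88-fold at 4 hr (log2 change 0.91, SE 0.07, adjusted p = 1.30e-06) and was 1.47-fold above 0 hr at 8 hr (0.56, SE 0.07, adjusted p = 8.15e-05). The RNAs of the receptor and of its ligand thus changed in opposite directions at both times.

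Procr, the endothelial protein C receptor, which presents protein C for activation and so serves the anticoagulant side, was the member still climbing at 8 hr. It read 6.58 and 6.41 in WT and 6.79 and 6.84 in S513A at 0 hr, 8.23 and 8.09 in WT and 8.20 and 8.25 in S513A at 4 hr, and 8.85 and 8.97 in WT and 8.94 and 9.11 in S513A at 8 hr. Its libraries were separated at every step. The rise was 2.90-fold at 4 hr (log2 change 1.54, SE 0.08, adjusted p = 3.76e-08) and 4.96-fold at 8 hr (2.31, SE 0.08, adjusted p = 2.56e-09), with a further 1.71-fold between them (0.77, SE 0.08, adjusted p = 6.82e-05). Markers of endothelial cells, from which the receptor takes its name, summed to 4.18 to 12.2 CPM over the 3 analysed here, most of it Kdr with 33 to 152 reads per library, while Pecam1 had 1 to 9 and Cdh5 0 to 16. Their part in the Procr result was not tested.

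Thbs1, thrombospondin 1, a matrix glycoprotein released by activated platelets and made by macrophages, varied most between libraries of one time at 0 and 4 hr. It read 8.38 and 8.09 in WT and 7.24 and 7.58 in S513A at 0 hr, 8.96 and 9.61 in WT and 8.85 and 8.66 in S513A at 4 hr, and 8.83 and 8.78 in WT and 9.35 and 9.13 in S513A at 8 hr. All libraries with LPS lay above all without, while those of 4 and 8 hr overlapped. The rise was 2.29-fold at 4 hr (log2 change 1.20, SE 0.14, adjusted p = 3.57e-05) and 2.30-fold at 8 hr (1.20, SE 0.14, adjusted p = 4.72e-05), and the difference between 4 and 8 hr was 0.00 (95% confidence interval -0.31 to 0.32). These are means of values that differed between the genotypes. The change from 4 to 8 hr was -0.48 in WT and 0.48 in S513A (SE 0.20 each), and neither passed (limma, adjusted p = 0.144 and 0.114). From 0 to 8 hr the rise was 1.48-fold in WT (adjusted p = 0.0511) and 3.56-fold in S513A (adjusted p = 4.21e-05). The test of the genotype difference in the change from 0 to 8 hr did not pass (adjusted p = 0.193). Markers of fibroblasts, which also make thrombospondin 1, summed at 0 hr to 47.6 to 62.5 CPM in WT and 21.1 to 48.2 in S513A. At 4 hr they summed to 41.1 to 82.7 and 20.5 to 59.4, and at 8 hr to 42.1 to 56.9 and 21.5 to 58.7. At 0 hr Col1a1, Col1a2, Col3a1 and Pdgfra were lower in S513A than in WT, while Dcn was higher (1.54 against 1.18 log2 CPM). Dcn stood at 2.63 in WT and 2.77 in S513A at 8 hr. The part of fibroblasts in the Thbs1 result was not tested.

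**Figure D3:**
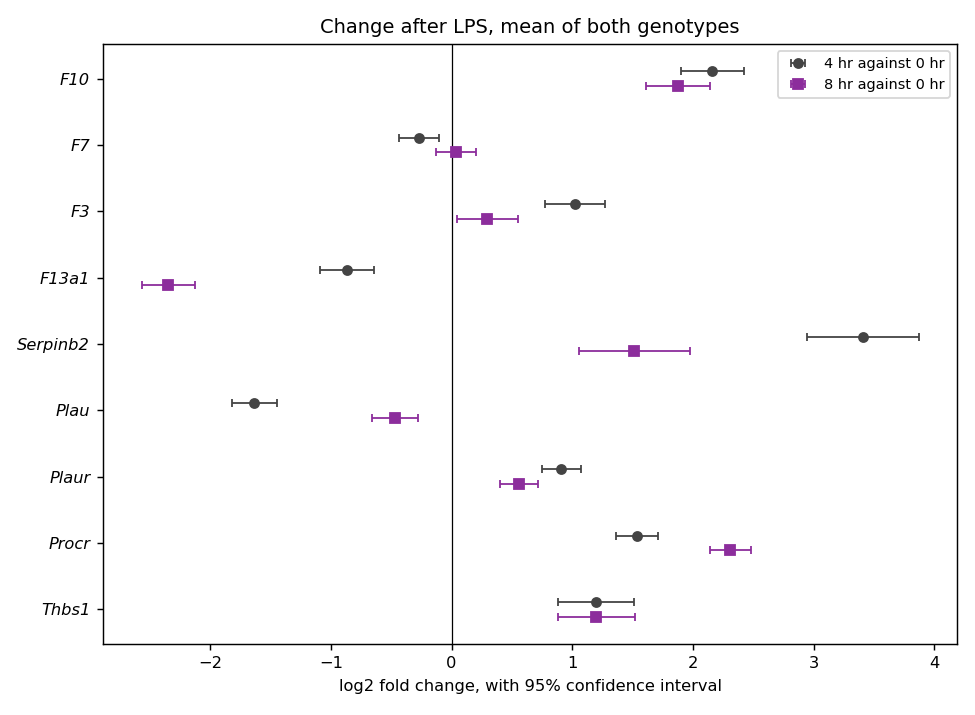
Log2 fold change after 4 hr (circles) and 8 hr (squares) of LPS against 0 hr, mean of both genotypes, with 95% confidence intervals from limma. Serpinb2 stands at 3.41 and Plau at -1.63 at 4 hr, and Procr at 2.31 and F13a1 at -2.35 at 8 hr.

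Around the 9 genes, a list of 57 coagulation and fibrinolysis genes, members included, gave 30 that were tested. Of the 21 tested that were not members, 6 rose and 8 fell at 4 hr and 5 rose and 8 fell at 8 hr, with median log2 changes of -0.26 and -0.34. The fibrinogen genes Fga, Fgb and Fgg, prothrombin (F2) and plasminogen (Plg) were not analysed here. Thbd, thrombomodulin, which works with Procr to activate protein C, fell by 3.23 at 4 hr (SE 0.13, adjusted p = 6.53e-09) and by 2.35 at 8 hr (SE 0.13), from 337 to 458 reads per library at 0 hr to 25 to 46 at 4 hr. Pros1, protein S, the cofactor of activated protein C, fell by 0.59 at 4 hr (SE 0.07) and by 1.19 at 8 hr (SE 0.07, adjusted p = 1.98e-07). Of the 4 anticoagulant genes tested, Procr rose, Thbd and Pros1 fell, and Tfpi, the inhibitor of the tissue factor complex, had log2 changes of -0.14 and 0.04 that did not pass.

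Vwf, von Willebrand factor, fell by 0.87 at 8 hr (SE 0.19, adjusted p = 0.00291). Its group means went from 6.35 to 5.128 log2 CPM in WT and from 6.314 to 5.795 in S513A. Cd47, a receptor of thrombospondin 1, rose by 1.02 at 8 hr (SE 0.11, adjusted p = 2.87e-05). Plat, the tissue-type plasminogen activator, rose by 2.06 at 4 hr (SE 0.51, adjusted p = 0.00554), on 1 to 27 reads per library. F2r, the thrombin receptor PAR1, had a log2 change of 1.77 at 4 hr (SE 0.59, adjusted p = 0.0257), on 0 to 14 reads per library. Its group means went from -1.19 to -0.79 log2 CPM in WT and from -3.38 to -0.23 in S513A. Klkb1, plasma prekallikrein, had a log2 change of 1.62 at 8 hr (SE 0.50, adjusted p = 0.022), on 2 to 17 reads per library. The sizes of both changes depend on the value added before the logarithm. None of the 21 passed between the genotypes at 0, 4 or 8 hr or in the mean of the times (limma), while 2, 2, 5 and 2 reached an unadjusted p under 0.05, which 7.98%, 7.01%, 12.5% and 6.71% of all genes did.

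The next question was whether the S513A replacement changed these genes. No member passed between S513A and WT at 0, 4 or 8 hr or in the mean of the times, against 0.0337%, 0.0168%, 0.0337% and 0.0673% of all genes (limma). At an unadjusted p under 0.05 there were 3, 2, 0 and 6 members in these 4 comparisons, where 7.98%, 7.01%, 12.5% and 6.71% of all genes were, and the count with adjusted p was 0 with voom weights too. The libraries of the genotypes did not overlap for 6 of 9 members at 0 hr, 5 at 4 hr and 4 at 8 hr, where 57.5%, 28.2% and 53.6% of all genes did not overlap. Such a separation, with 2 libraries a group, was thus frequent among all genes, and its cause was not tested. The numbers below are given with their intervals.

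F7 was nearest to equal, with S513A minus WT at 0.01 (95% confidence interval -0.23 to 0.24) at 0 hr, -0.04 (-0.27 to 0.20) at 4 hr and 0.02 (-0.21 to 0.26) at 8 hr on the log2 scale. For F13a1 every S513A library lay above every WT library at each time, and the mean difference was 0.27 (0.09 to 0.45, adjusted p = 0.538). Plau showed the same order, with a mean difference of 0.21 (0.06 to 0.37, adjusted p = 0.566). The share of all genes that keep such an order at every time was not counted. For F10, Plaur and Procr the mean differences were 0.23 (0.01 to 0.44), 0.14 (0.01 to 0.27) and 0.17 (0.03 to 0.31), all short of the threshold after adjustment. F3 stood at -0.10 (-0.31 to 0.10) and Serpinb2 at -0.32 (-0.70 to 0.05).

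**Figure D4:**
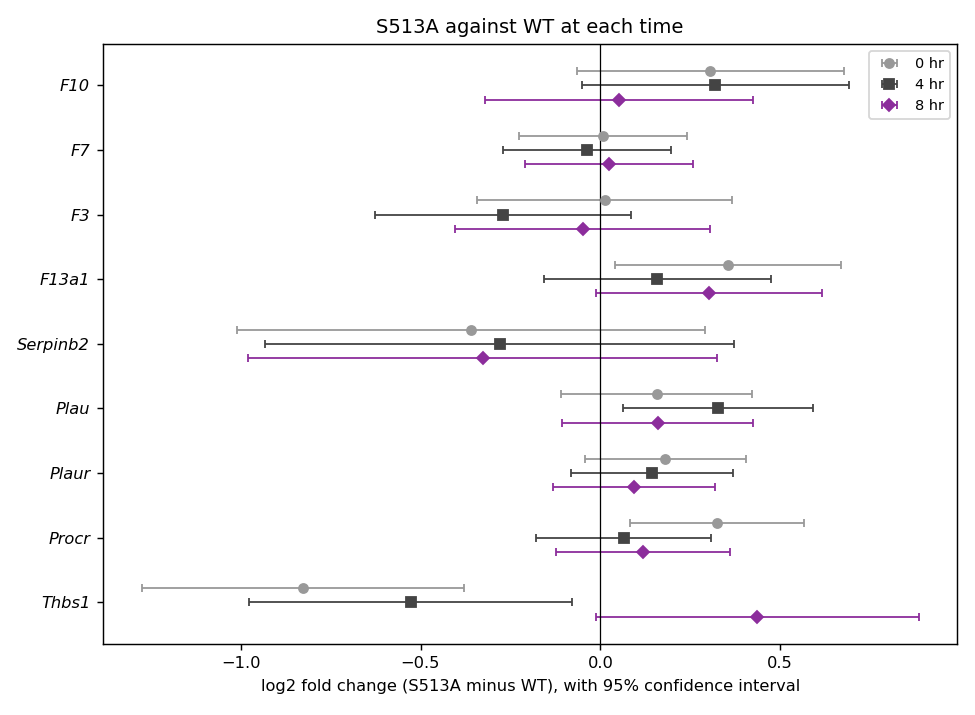
Log2 fold change of S513A against WT at 0 hr (circles), 4 hr (squares) and 8 hr (diamonds) of LPS, with 95% confidence intervals from limma. F7 sits within 0.04 of 0 at all times, Thbs1 runs from -0.83 at 0 hr to 0.44 at 8 hr, and no difference passes after adjustment over all genes.

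Thbs1 was the member whose libraries changed order, S513A below WT at 0 and 4 hr and above it at 8 hr. S513A minus WT was -0.83 (95% confidence interval -1.27 to -0.38, adjusted p = 0.586) at 0 hr, -0.53 (-0.98 to -0.08, adjusted p = 0.622) at 4 hr and 0.44 (-0.01 to 0.88, adjusted p = 0.403) at 8 hr on the log2 scale. At 4 hr the difference was -0.85 without WT 4 hr replicate 1 and -0.21 without WT 4 hr replicate 2. The difference between 8 and 0 hr was 0.57 (SE 0.20) within WT and 1.83 (SE 0.20) within S513A. The test of that difference, the genotype by LPS interaction at 8 hr, gave 1.26 (SE 0.29, unadjusted p = 0.00116, adjusted p = 0.193), where 0% of all genes passed and 2405 genes had an unadjusted p under 0.05. Without S513A 8 hr replicate 2 the interaction was 1.38 and passed (adjusted p = 0.0374), as did 5.48% of all genes in that setting. For the other 8 members the interaction at 8 hr lay between -0.25 and 0.03 and at 4 hr between -0.28 and 0.17, and none passed.

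Relative to the mean of its time, Thbs1 had the same sign as long minus short genes in 10 of the 12 libraries. The exceptions were S513A 4 hr replicate 1 and S513A 8 hr replicate 2. The share of all genes with as many equal signs was not counted, so the count does not set Thbs1 apart. Among genes with a mean of at least 3 log2 CPM, each library's median deviation from the mean of its time was taken for the 25% with the longest exons (at least 7102 bases, 2081 genes) minus that for the shortest 25% (at most 2968 bases). This value was 0.51 in WT 4 hr replicate 2 and 0.42 in S513A 8 hr replicate 1, the highest of the 12, where Thbs1 deviated by 0.58 and 0.33. Thbs1, with 6073 exon bases, is not in the longest class itself, and F13a1, the longest member with 6739, deviated by -0.09 and 0.14 in these 2 libraries. In the WT libraries at 0 hr the long-gene value was 0.15 and 0.16, with Thbs1 at 0.56 and 0.27, and in the S513A libraries at 0 hr -0.18 and -0.17, with Thbs1 at -0.58 and -0.24. At 8 hr the WT libraries read -0.15 and -0.27, with Thbs1 at -0.19 and -0.24, and the other S513A library -0.01, with Thbs1 at 0.11. At both times the genotype with more Thbs1 thus had the higher long-gene values. Its part in the Thbs1 result was not tested. With both libraries of the highest long-gene values left out, an analysis chosen after seeing the data, the interaction at 8 hr was 1.15 (adjusted p = 0.178) and the rise of Thbs1 at 4 hr 1.04 (adjusted p = 1.01e-05).

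**Figure D5:**
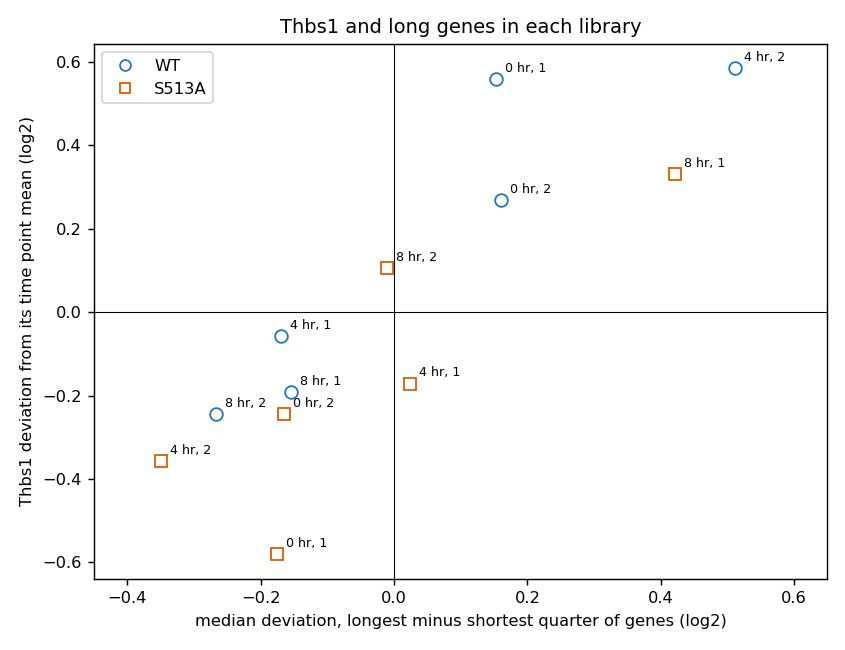
Deviation of Thbs1 from the mean of its LPS time (log2, vertical) against the median deviation of the longest minus the shortest 25% of genes (log2, horizontal) in each of the 12 libraries, labelled by time and replicate. The 3 WT libraries with Thbs1 above its time mean, at 0.56, 0.27 and 0.58, all lie right of 0, and WT 4 hr replicate 2 lies furthest right at 0.51.

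Over the 12 libraries, each gene's pattern was compared with the 8353 genes of at least 3 log2 CPM on average by Pearson's r, as a description, since the libraries share their LPS times and any gene that follows the time course scores high. The closest to F10 were Snx10 (r = 0.996) and Rtp4 (0.995), to Procr Hcls1 (0.997) and Acsl5 (0.996), and to Plaur Mat2a (0.991) and Mtmr14 (0.990). Plau was closest to Dna2 (0.984) and Fblim1 (0.981), F13a1 to Ckb (0.980) and Iqgap2 (0.974), and Serpinb2 to Ndel1 (0.978) and Cldnd1 (0.977). For Thbs1 they were Notch1 (0.980) and Flii (0.971), for F3 Cep83 (0.958) and Ptpn9 (0.954), and for F7 Slc8b1 (0.952) and Map2k3 (0.943). No other member of the 9 was among the closest pair of any member.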

How the data were processed

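Poly(A) RNA libraries (NEBNext Ultra, NextSeq 500) were, per the labels and the study's methods, mapped unstranded to mm10 with HISAT2 and counted per gene with featureCounts 1.6.3. The authors deposited log2 CPM values. Whole reads were recovered from them to within 0.00145 of a read, at 0.5 reads added to each gene and the deposited library sizes, whose normalization factors spanned 0.877 to 1.15. A gene was kept if 2 or more libraries reached 1 CPM. The log2 CPM values of all 12 libraries entered 1 fit of the 6 group means with limma 3.58.1 (R 4.3.3, variance trend, 6 residual degrees of freedom), with Benjamini-Hochberg adjustment over 11885 genes for each comparison and a threshold of 0.05. The steps were tested on simulated data. With 9525979 to 12439960 reads per library, 3 reads correspond to -2.04 to -1.30 log2 CPM, and intervals do not cover variation between mice beyond these libraries.

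The 9 members and the gene lists were chosen with earlier results of these data known. All members were named. Of the other pathway genes, the 8 with the largest change among those passing at 4 or 8 hr were named, except 1 that is not reported here, and for each member the 2 genes of highest correlation. Other genes were named afterwards as background. Exon lengths and 3′ UTRs came from GENCODE M21 (GRCm38), with 1 transcript per gene for UTRs. Alternatives were 9 changes of filter, offset, scaling, prior, weights or replicate block, and each of the 12 libraries left out.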

Additional observations from a re-analysis of the deposited data

Results flagged for a closer look

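Thbs1 was singled out because every S513A library lay below every WT library at 0 hr (log2 difference -0.83) and at 4 hr (-0.53), and above every WT library at 8 hr (0.44). The change of sign was tested as the genotype by LPS interaction at 8 hr and did not pass (1.26, SE 0.29, adjusted p = 0.193). Its range over the alternatives was 1.09 to 1.43, and it passed in 1 of them, without S513A 8 hr replicate 2 (adjusted p = 0.0374), where 651 of 11885 genes passed, against 0 with all libraries.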

How the results depend on the processing

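The number of members called was 9 at 4 hr of LPS under all 9 alternatives of filter, offset, scaling, prior, weights and block, and 8 to 9 with a library left out. At 8 hr it was 7 to 8, and between 4 and 8 hr 7 under the 9 alternatives and 6 to 8 with a library left out. No genotype comparison called a member in any alternative, and the interaction at 8 hr called 0 to 1 with a library left out (1 without S513A 8 hr replicate 2, Thbs1, where 5.48% of all genes were called). F3 at 8 hr, short of the threshold as reported, passed with the filter at a mean of 5 CPM (adjusted p = 0.0499) and without WT 0 hr replicate 1 or S513A 0 hr replicate 1 (adjusted p = 0.0365 and 0.0388), and was 0.13 (adjusted p = 0.399) with library totals. F7 between 4 and 8 hr was not called without WT 8 hr replicate 2 (0.28, adjusted p = 0.0571).

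Scaling by library totals moved the median of all genes from 0.02 to -0.24 at 4 hr and from -0.0007 to -0.17 at 8 hr. The share of called genes that were higher moved from 52.2% to 30.9% at 4 hr and from 53.2% to 35.0% at 8 hr. Between 4 and 8 hr it moved from 50% to 66.6%. Under this scaling F7 at 8 hr, called in neither analysis, reversed from 0.04 to -0.12 (limma, adjusted p = 0.224), where the median of all genes was -0.17. All called members kept their direction. With a library left out, F7 at 8 hr ranged from -0.0026 (without S513A 0 hr replicate 2) to 0.084. The difference of Thbs1 between 4 and 8 hr, near 0, was -0.0014 with median-ratio scaling and ranged from -0.159 (without WT 4 hr replicate 1) to 0.163, and its interaction at 4 hr from -0.0227 (without the same library) to 0.621. The causes were not tested.

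The labels do not say what the replicate numbers share. The differences between replicate 2 and replicate 1 correlated across genes between groups from -0.749 to 0.760, the highest between S513A at 4 and 8 hr, so the numbers were not taken as pairs. With the replicate block 8 members were called at 8 hr, F3 among them (adjusted p = 0.0369, and 0.0412 with a block within each genotype, which lowered the SE of Serpinb2 from 0.21 to 0.10), and 9 and 7 at 4 hr and between 4 and 8 hr. The low depth of F3 and F13a1, 31 to 248 reads, limits the precision of their values.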
